A study of Mus musculus with 2 samples.

Results

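Among the regions of open chromatin that both libraries of neonatal mouse adrenal gland held on chromosomes 1 to 19, 1448 of 38180 lay in an exon and away from every promoter. These exonic regions were chosen by the peaks themselves. A replicate 2 peak was kept where a replicate 1 peak overlapped it, its centre lay over 1 kb from every transcription start site (TSS) of GENCODE release M21, and the centre fell inside an annotated exon. Of all shared regions, 21474 were within 1 kb of a TSS, 7396 were in introns and 7862 lay between genes. Exons thus held 8.67% of the 16706 shared regions away from promoters. Without the demand that both libraries hold a region, 1874 peaks of replicate 1 and 4589 peaks of replicate 2 met the same position rule.

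Both libraries are DNase-seq of adrenal glands taken at 4 days of age from female B6CASTF1/J mice, a first-generation hybrid strain, and they are biological replicates 1 and 2 of a single group for which no treatment is named. The descriptions speak of 3 females for each sample, yet both samples carry 1 donor identifier, so the pooling of animals is not known from the sources used here, and the spread between the libraries may be technical. The alleles of the hybrid were not separated. Of the marker genes looked up, a shared promoter region was found at 2 of 6 for the cortex (Nr5a1 and Cyp11a1), at 2 of 5 for the medulla (Chga and Chgb) and at 1 of 6 for other tissues (Ptprc, a leukocyte gene). No promoter region was shared at Star, Mc2r, Hsd3b1, Cyp21a1, Th, Dbh or Pnmt. In bulk tissue, fewer cells with an open region and a less open region per cell cannot be told apart. With 1 group there is no comparison between conditions, and regions are not replicates, so all values below are descriptions of these 2 libraries.

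DNase I cuts DNA where nucleosomes are displaced, and a protein bound there protects a short stretch, which is called a footprint. Most open regions away from promoters lie in introns or between genes, but transcription factors can also bind inside exons. In coding sequence the bases under such a protein specify amino acids as well. CTCF, a zinc finger protein that helps to fold chromosomes into loops, recognises a long sequence and usually leaves a clear footprint wherever it binds.

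The sites that recur in the results below are shown first. Each is 30 bases of the reference GRCm38, written 5′ to 3′ on the strand that carries the motif, and its capitals mark the letters that match a consensus and lie at least in part inside deposited footprints of both libraries. These 6 coding sites were picked, after their values were seen, as strongly open coding regions holding the CTCF consensus, which was searched as 13 letters with alternatives. They lie in Hey1 at chr3:8664684-8664713 on the plus strand, and on the minus strand in Crh at chr3:19694055-19694084, Rasip1 at chr7:45628950-45628979, Pgls at chr8:71596108-71596137, Gpr153 at chr4:152283370-152283399 and Soga1 at chr2:157030987-157031016.
Hey1: ccaagccgCCACTAGGGGGCGctcgcaagg
Crh: cctcggtggCCACCAGGGGGCGctggagag
Rasip1: ggtcctgcaCCAGCAGAGGGCGctccgcgt
Pgls: gtccaggaaCCAGCAGAGGGCGcccgtgcg
Gpr153: tgcgtacggCCACCAGGGGGCGttgggacc
Soga1: gaaggaagaCCAGCAGAGGGCGctgctgag

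The next 4 are shown to set other kinds of site and of exon beside them. The first is the coding region with the highest geometric mean of both libraries' signal, in Spi1, with the YY1 letters AAGATGGCG at chr2:91115250-91115279 on the plus strand. The others lie in non-coding exons: the NRF1 letters GCGCATGCG in Gm14486 at chr2:30658678-30658707 on the minus strand, the cAMP response element (CRE) TGACGTCA in A430078I02Rik at chr6:86472409-86472438 on the plus strand, and the CTCF consensus in a non-coding transcript of Setd1b at chr5:123149832-123149861 on the minus strand.
Spi1: gacctaccagAAGATGGCGcgcgcgctgcg
Gm14486: cgcgccgtactGCGCATGCGtcagtcggct
A430078I02Rik: gctgcgggtggTGACGTCAccggggttccc
Setd1b: tcccgacctCCAGCAGGGGGCGccggaggg

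Coding sequence held the most exonic regions. There were 605 in coding sequence, or 41.8%, then 428 in 3′ untranslated exons, or 29.6%, and 386 in non-coding exons, or 26.7%. The remaining 29 lay in 5′ untranslated exons more than 1 kb from a TSS, 2% of the whole. A base with several annotations was counted once, with coding sequence ahead of 3′ untranslated, 5′ untranslated and non-coding exon. Of the non-coding exons, 228 belonged to genes for long non-coding or other RNA, 145 to non-coding transcripts of protein-coding genes and 13 to pseudogenes. Many of these exons are also intronic for another transcript: 181 of the 386 centres lay in an intron of a coding transcript, against 50 of 605 for coding sequence.

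Open regions were denser in exons than in the rest of the distal genome. Exons made up 3.6% of the bases over 1 kb from a TSS and held 17.9 regions per Mb, beside 7.67 in introns and 6.55 between genes. Coding sequence held 25.1 per Mb over 24.1 Mb. The 3′ untranslated exons held 14.4 and non-coding exons 14.6. Distal 5′ untranslated exons reached 46.7 per Mb, but over only 0.621 Mb. Among bases over 1 kb from a TSS, only unsequenced ones were left out of these totals, so repeats were counted in every place. How far the densities depend on where reads can be placed was not tested. Of the exonic regions, 31.4% lay between 1 and 2 kb from the nearest TSS, as did 14.9% of intronic and 7.53% of intergenic ones. The share of exon bases in that band was not computed, so these values do not separate the regions from the position of exons. With the limit set at 2.5 kb, 898 exonic regions remained and their share of distal regions was 6.49%.

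**Figure D1:**
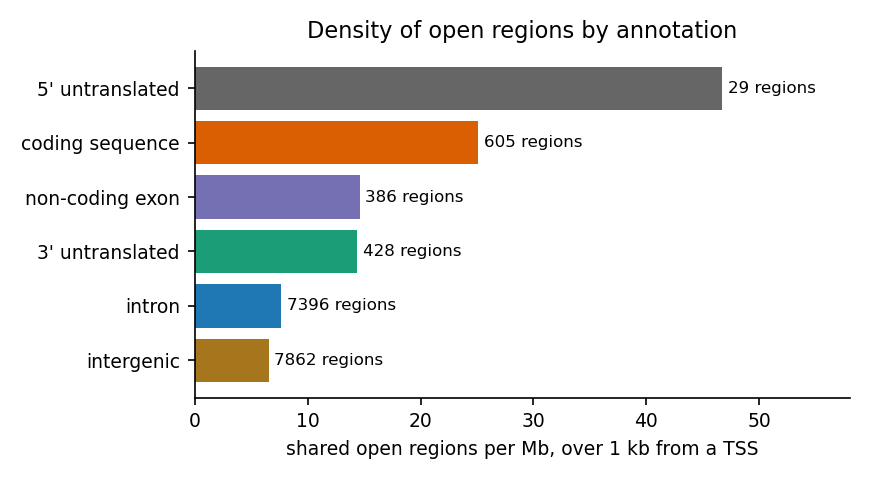
Shared open regions per Mb over 1 kb from a TSS, for each kind of annotation (bars), with the number of regions beside each bar. The 4 kinds of exon lie between 14.4 and 46.7 per Mb, above introns at 7.67 and intergenic sequence at 6.55.

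The coding regions sat in long exons. Their median exon length was 999 bp, and 61.3% lay in exons of 500 bp or more, which hold 34.8% of the distal coding bases. Only 24% lay in exons of 200 bp or less, which hold 48.8% of those bases. Of the coding regions, 38.8% crossed an edge of the exon used to place them. Whether the sequence beyond that edge was intronic was not computed, and 40.8% of the coding regions lay in the last of several exons. Regions in 3′ untranslated exons were in the last of several exons in 94.4% of cases, and 4.21% crossed an edge.

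Coding and distal 5′ untranslated regions were the richest in GC among the exonic ones. Median GC content was 63.9% in the 29 regions of 5′ untranslated exons, 62% in coding sequence, 56.2% in 3′ untranslated exons and 55% in non-coding exons, beside 54.1% in introns. A region was called CpG-rich when its GC content was above 55% and its CpG count above 0.6 of that expected from its bases. By that definition 280 coding regions were CpG-rich, or 46.3%, as were 65.5% of regions in 5′ untranslated exons, 12.4% of regions in 3′ untranslated exons, 13.5% in non-coding exons and 6.96% in introns. At promoters the share was 73.2%. The CpG-rich coding regions lay at a median of 2142.5 bp from the nearest TSS, and the other coding regions at 3940 bp.

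The deposited signal, 1 value per peak in the authors' own scaling, was mostly higher in replicate 2. Its median over exonic regions was 0.93 in replicate 1 and 2.02 in replicate 2. Medians in coding sequence were the lowest of the exon classes, at 0.87 and 1.60. In 3′ untranslated exons they were 0.994 and 2.48, and in non-coding exons 0.947 and 2.25. Intronic regions, at 0.853 and 1.91, lay close to the exonic ones, while promoters stood higher at 1.40 and 2.64. The sources used here do not give the scaling between the libraries, so differences and ratios between the libraries below include whatever that scaling adds.

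Signal of a region in one library followed that in the other. Across the 1448 regions Spearman's rho was 0.83 and Pearson's r of log10 signal 0.842. These are descriptions over regions that share both libraries. Of the exonic regions, 56 had the higher value in replicate 1, or 3.87%, the same percentage as over all shared regions. The share was lower in introns, at 2.41%, and between genes, at 2.54%, and higher at promoters, at 4.85%. The median of the value in replicate 2 over that in replicate 1 was 2.06, with 1.82 in coding sequence and 2.30 in 3′ untranslated exons. It was 2.21 in introns, 2.26 between genes, 1.86 at promoters and 1.99 over all shared regions. In CpG-rich coding regions it was 1.60, and in the other coding regions 2.01.

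The 3 strongest regions stood far above the rest, and all of them lay in last exons as 3′ untranslated sequence. Cers5, which encodes a ceramide synthase, had a region at chr15:99735641-99736040 with 42.3 in replicate 1 and 39.4 in replicate 2. Lars2, the mitochondrial leucyl-tRNA synthetase, had 29.8 and 43.9 at chr9:123461921-123462080. Ubqln1, a ubiquitin-binding shuttle protein, had 21.9 and 24.9 at chr13:58177641-58177800. The geometric mean of both values was 23.4 at Ubqln1 and 8.04 at the next region, so a wide gap separated these from the other regions. Their values in the libraries were also closer to each other than those of most regions, with ratios of 0.932, 1.47 and 1.14.

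The strongest regions differed in footprints and in repeated sequence. The Cers5 region held 0 footprints in replicate 1 and 3 in replicate 2 despite its signal, Lars2 held 2 and 5, and Ubqln1 held 1 and 3. At Lars2, 59.7% of the 32-base stretches occurred elsewhere in the genome, and 7 other places matched at least 50% of the region at 90% identity or more. Neither Cers5 nor Ubqln1 had a 32-base stretch that occurred elsewhere or any other match in the assembly.

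**Figure D2:**
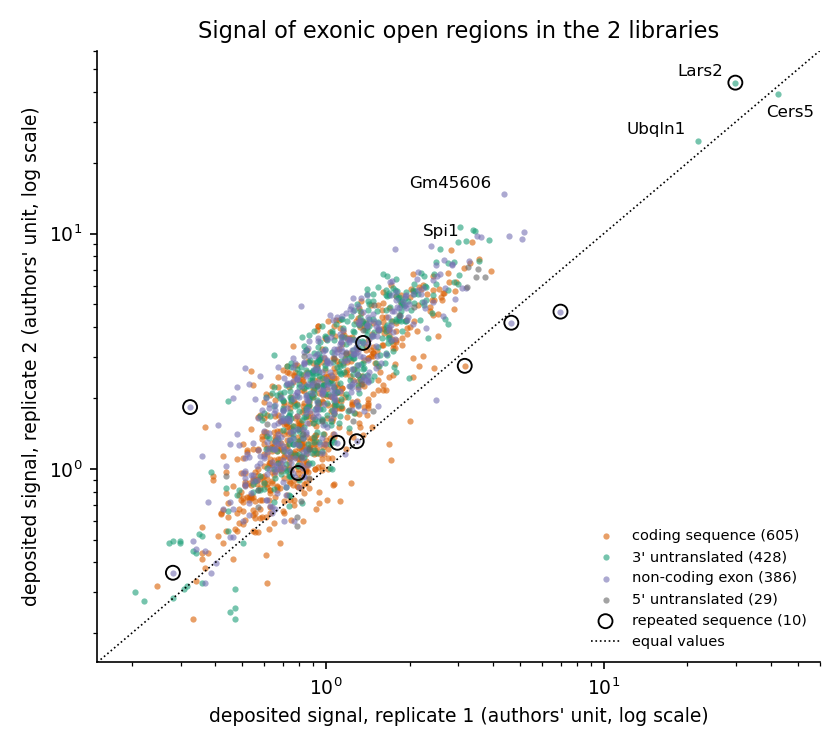
Deposited signal of each exonic open region in replicate 1 (horizontal, log scale) against replicate 2 (vertical, log scale), coloured by exon class; rings mark regions with repeated sequence and the dotted line marks equal values. Cers5, Lars2 and Ubqln1 lie alone at the upper right near the dotted line, and most other points lie above that line.

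Regions were ranked by the geometric mean of their values in both libraries. In coding sequence Spi1 came first, at 3.36 and 9.21, though Angptl6 at 3.93 and Ccdc194 at 3.57 were higher in replicate 1. Spi1 encodes PU.1, an ETS-family transcription factor of blood cells. Its region, chr2:91115161-91115320, was 2903 bp from the nearest TSS, which belongs to Mybpc3. It was in the last of 5 exons, 19145 bp from the 5′ end of the transcript used to place it. It held 4 footprints in replicate 1 and 2 in replicate 2, and the YY1 letters shown above lay inside a footprint in each. The 7 coding regions next in order were in Ccdc194, Angptl6, Stk35, Ppp1r18, Rsad1, Zfp219 and Pgls. Across these, the replicate 1 values lay between 2.75 at Zfp219, a zinc finger gene, and 3.93 at Angptl6, which encodes an angiopoietin-like secreted protein. Those of replicate 2 lay between 6.22 at Pgls, an enzyme of the pentose phosphate pathway, and 8.5 at Ppp1r18. All 8 had footprints in both libraries and were in both stricter lists. Angptl6 and Stk35 lay 1396 and 1024 bp from their own TSS, near the 1 kb limit, while the Ppp1r18 region was 5568 bp away.

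Behind Cers5, Lars2 and Ubqln1, the strongest regions in 3′ untranslated exons were similar to the strongest coding ones in replicate 1. In replicate 2 they were higher, from 9.26 upward, where the coding regions reached at most 9.21. Rtn2, a reticulon gene, had 3.85 and 9.38. Tnfrsf1b, a receptor of tumour necrosis factor, had 3.04 and 10.7, with a CTCF consensus that overlapped footprints of both libraries. Dand5, a secreted antagonist of Nodal and BMP ligands, had 3.45 and 10.3, also with a CTCF consensus that overlapped footprints of both. The others named by rank were Prss22, Cavin1 and Ptges2, between 3 and 3.37 in replicate 1 and between 9.26 and 10.4 in replicate 2. In this class the signal was ordered alike in both libraries only in part, as Rtn2 led Tnfrsf1b in replicate 1 and trailed it in replicate 2.

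Among non-coding exons without repeated sequence, Gm45606, a single-exon RNA gene, ranked first at 4.38 and 14.7. Its lead came from replicate 2. Gm14486 had 5.15 and 10.2, and A430078I02Rik had 5.09 and 9.49. Both of these regions were CpG-dense, with GC contents of 74.1% and 71.2%, and lay 11297 and 8321 bp from the nearest TSS. They carried the NRF1 letters and the CRE shown above, each inside footprints of both libraries. Gm49427, at 4.55 and 9.76, had a GC content of 73.8%, and Gm11946, D030055H07Rik, 4930578M01Rik and Gas2l1 followed with 2.85 to 3.61 in replicate 1 and 7.46 to 9.75 in replicate 2.

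The stricter lists held about the same share of exonic as of intronic regions in replicate 1. Of the 1448, 723 were in the stricter list of both libraries, or 49.9%, beside 64.7% of all shared regions. Replicate 1 alone held 53.9% and replicate 2 held 78.8%. In coding sequence the shares were 51.1% and 71.4%, and in introns 51.5% and 81.6%.

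Footprints were found in most exonic regions. In replicate 1, 86.6% of them overlapped a footprint (exact 95% interval 84.7 to 88.3, for counting error only), and in replicate 2 the share was 90.5% (88.9 to 92). Both libraries had one in 1164 regions, or 80.4%, beside 79.6% of all shared regions. The exonic share was near that background, above the 76.5% of promoters and below the 83.5% of introns and 84% of intergenic regions. In coding sequence both libraries had one in 75%. In replicates 1 and 2 taken singly, coding sequence had 84.1% and 87.6%, 3′ untranslated exons 89.7% and 92.3%, and non-coding exons 86.5% and 93.3%. Median width was 10 bp in replicate 1 and 11 bp in replicate 2.

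How often a footprint was found went with signal. All shared regions of a library were divided into 5 groups of equal size by its signal. In the weakest group 68.5% of exonic regions had a footprint in replicate 1, and in the strongest 99.1%. In replicate 2 these shares were 71.3% and 100%. In group 2, where the classes were farthest apart, exonic regions had 84.2% in replicate 1, introns 91.3% and promoters 70.9%. In replicate 2 the values there were 89.2%, 96% and 68.5%, so exonic regions lay between introns and promoters in both libraries.

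**Figure D3:**
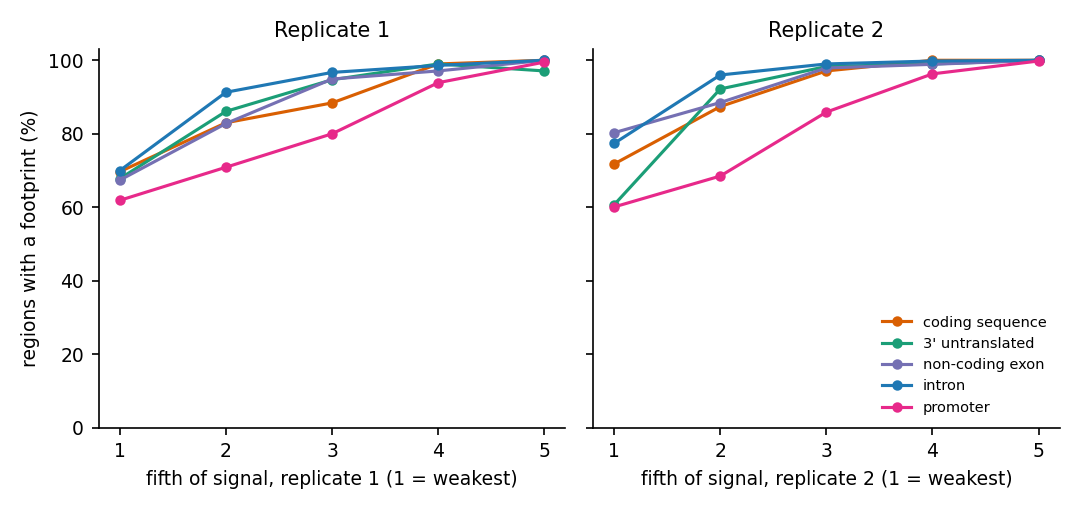
Share of shared regions with at least 1 deposited footprint (vertical, percent) by group of signal from the weakest (1) to the strongest (5), for each library and 5 places. Every line rises to between 97.1% and 100% in the strongest group, and promoters lie lowest in groups 2 and 3.

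Overlap of footprints between the libraries was near that in other places. Of the footprints of replicate 1 in exonic regions, 62.1% were overlapped by one of replicate 2, and 51.8% in the other direction. In introns these shares were 65.7% and 53.5%, and at promoters 54.4% and 51%. Coding sequence had the lowest shares of the exon classes, 53.8% and 46.8%. The shares were 69.4% and 54.1% in 3′ untranslated exons, and 66.6% and 55.3% in non-coding exons. Within exonic regions, footprints of both libraries covered 5337 coding bases.

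Of 12 consensus strings searched on both strands in the 200 bp around each centre, the CTCF consensus was the most frequent in exonic regions. It occurred in 196 of 1448, or 13.5%, beside 8.73% of all shared regions. It was unevenly spread: 21.3% of regions in 3′ untranslated exons held it, 15% in non-coding exons and 7.44% in coding sequence. The shares in introns and between genes were 17% and 18.2%, and at promoters 2.07%. Coding sequence therefore lay between promoters and the other distal places. In 2534 windows of the same size 1 kb to either side of the exonic centres, and free of peaks, 2 held the consensus, or 0.0789%. Windows that overlapped a peak of either library were left out, and with them any open site that holds the consensus. That value is therefore no background for the share in the exonic regions, which are peaks by rule.

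**Figure D4:**
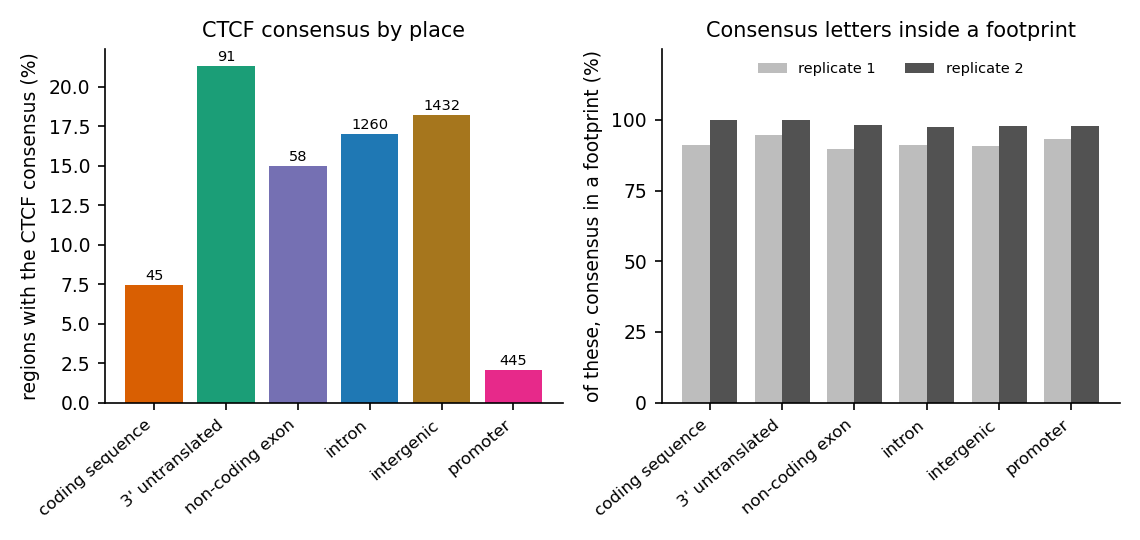
Left, share of shared regions with the CTCF consensus in 200 bp around the centre (percent), by place, with the number of regions above each bar; right, share of those regions whose consensus letters overlap a footprint in replicate 1 (light) and replicate 2 (dark). The share runs from 2.07% at promoters to 21.3% in 3′ untranslated exons, and the consensus was in a footprint in 89.7% or more of cases in every place.

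The CTCF letters nearly always overlapped a footprint, where an overlap of at least 1 bp was counted, here and for the other motifs. They overlapped a footprint of replicate 1 in 181 of the 196 exonic regions, or 92.3%, and of replicate 2 in 195, or 99.5%. Of the 45 coding regions with the consensus, 41 had it in a footprint of replicate 1 and all 45 in replicate 2. These footprints were wide, with a median of 22 bp in replicate 1 and 28 bp in replicate 2. In introns the shares were 91.3% and 97.6%, so the exonic sites did not stand apart from other distal sites. The consensus lay at a median of 8 bp from the region's centre.

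Regions with the CTCF consensus had the higher signal. Their medians were 1.13 and 3.17, against 0.904 and 1.87 for regions without it, and in coding sequence 1.22 and 3.55 against 0.849 and 1.52. From the weakest to the strongest of 5 equal groups of exonic regions, the share with the consensus was 2.76%, 7.96%, 13.1%, 20.4% and 23.4%. The ratio of replicate 2 to replicate 1 was also larger with the consensus, 2.63 against 1.96. Signal was part of how the regions were found, so these values describe the chosen regions.

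The named coding CTCF sites fell in genes of different function. Hey1, a transcriptional repressor that Notch signalling induces, had 2.61 and 5.22 in its last exon. Crh, the corticotropin-releasing hormone, had 2.37 and 4.89 in the second of its 2 exons, 1325 bp from the TSS. Rasip1, a Ras-interacting protein of endothelial cells, had 2.56 and 5.8. Pgls had 2.93 and 6.22, Gpr153, an orphan receptor, had 2.32 and 5.52, and Soga1 had 1.71 and 6.03. Over the 45 coding regions, the consensus ran along the coding strand in 19 and against it in 21, and in 5 it was not wholly in coding sequence.

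The other motifs had lower shares in exonic regions. SP/KLF letters (GGGCGGG) occurred in 8.43% of exonic regions, beside 25% of all shared regions and 38.6% of promoters, and were in footprints of both libraries in 21.3% of the 122 cases, beside 36% over all shared regions. AP-1 letters (TGANTCA) occurred in 6.56%, with 10.4% in introns and 5.8% over all shared regions. They overlapped footprints of both libraries in 5.26% of the exonic cases, beside 6.33% over all shared regions. The E-box (CACGTG) occurred in 5.11%, beside 5.73% of all shared regions, and ETS letters (CCGGAAG) in 3.52%, beside 7.08%. In introns the shares were 6.98% for SP/KLF letters, 4.25% for the E-box and 1.73% for ETS letters. The letters of NR5A1 and its relatives (CAAGGTCA), the steroidogenic factor of the cortex, occurred in 2.42%, beside 2.66% of intronic regions and 1.43% of all shared regions, and 5 of those 35 had them in footprints of both, or 14.3%, beside 7.88% over all shared regions. NRF1 letters (GCGCATGCG) were in 1.1%, beside 1.45% of all shared regions, and NR4A letters (AAAGGTCA) in 0.76%, beside 0.71%. The GATA motif (AGATAAG) and a part of the REST motif (TTCAGCACC) were each in 0.898%, beside 1.19% and 0.87%. CRE (TGACGTCA) and YY1 (AAGATGGCG) were each in 0.345%, beside 1.49% and 1.24%. In introns, NRF1 letters were in 0.189%, NR4A in 1.1%, GATA in 1.96%, the REST part in 1.12%, CRE in 0.487% and YY1 in 0.406%. Exonic shares were thus above intronic ones for SP/KLF, E-box, ETS and NRF1 letters, and below them for the other motifs. The NR5A and NR4A letters share all but their first base. A match is a string in the window and was not tested for binding.

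The 1448 regions lay in 1263 genes, and most genes had a single one. A single region was found in 1118 genes, 2 in 119 and 3 in 18. There were 4 in each of 5 genes (Fjx1, Foxc1, Fzd8, Notch3 and Sox4), and Tns1 had 5, Zfp503 had 6 and Ccdc85c had 7. Counted by distinct replicate 1 peaks, Tns1 and Ccdc85c had 5 each, Zfp503 had 4, and the genes with 4 regions had 3 each. Neighbouring regions are not independent: 76 of the 1448 shared their replicate 1 peak with another, so that 1409 distinct replicate 1 peaks lay behind them, and 20 overlapped another exonic region.

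In Zfp503, which encodes a zinc finger repressor, the regions spread over its last 2 exons from 1670 to 4470 bp behind the 5′ end, 5 of them in coding sequence. The strongest, in the 5′ untranslated part, had 3.21 and 5.96, and the others had 0.614 to 2.16 in replicate 1 with 0.853 to 2.74 in replicate 2. Foxc1, a forkhead gene with 1 exon, had 2 coding regions and 2 in the 3′ untranslated part, up to 5117 bp from its start. Sox4, an HMG-box gene with 1 exon, had 3 coding regions and 1 in the 3′ untranslated part. Fzd8, a Wnt receptor, had all 4 in coding sequence, with 4.02 in replicate 2 at the strongest. In Fjx1 the values were lower, at most 0.708 and 1.2. Apart from Zfp503, these genes consist of 1 exon, so all their regions lay in the exon that begins at the promoter.

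**Figure D5:**
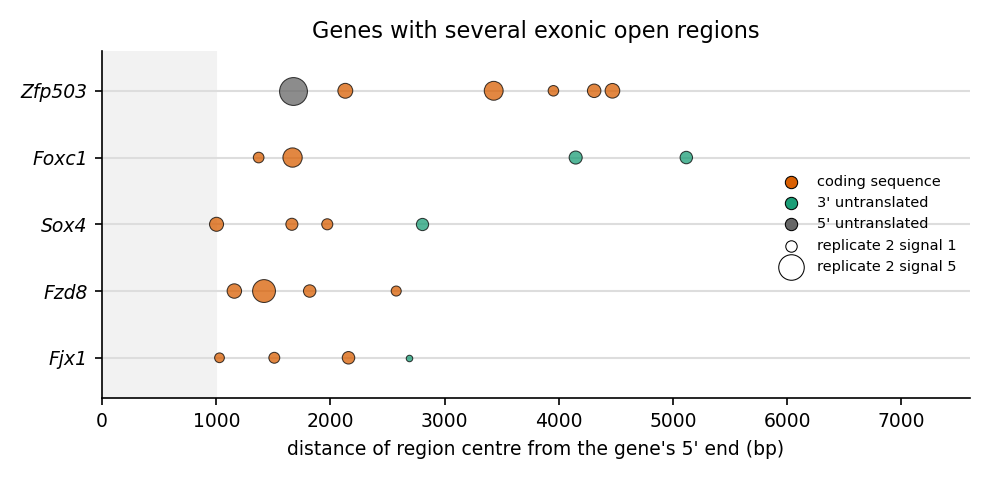
Distance of each exonic open region from the 5′ end of the transcript used to place it (horizontal, bp) in 5 genes. Points are coloured by exon class, with the area of a point in proportion to its replicate 2 signal. The shaded part is the 1 kb excluded by the rule, and the points run from 1002 bp in Sox4 to 5117 bp in Foxc1.

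Ccdc85c and Tns1 differed from those genes. All 7 regions of Ccdc85c lay inside a stretch of 2.66 kb in its 3′ untranslated exon, 69214 to 71564 bp from the 5′ end of the transcript used. Their signal was at the bottom of the range, 0.281 to 0.469 in replicate 1 and 0.229 to 0.493 in replicate 2, yet 6 of 7 were in both stricter lists. They overlapped 5 distinct replicate 1 peaks, and 4 had a footprint in replicate 1 and 2 in replicate 2. In Tns1, a gene of focal adhesions, 4 regions lay in the 3′ untranslated exon, at 0.205 to 0.316 in replicate 1 and 0.299 to 0.493 in replicate 2, and the other one, in a non-coding exon, had 1.01 and 3.58. Dlk1, a membrane protein related to Notch ligands, had 2 regions of the same kind in its 3′ untranslated exon, at 0.307 and 0.308 and at 0.222 and 0.273; it was singled out after its values were seen.

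Protein-coding genes with an exonic region numbered 1055 of 20780, or 5.08%. Of these, 788 also had a shared promoter region, or 74.7%, beside 61.5% of all protein-coding genes. The gene lists are short, and their counts are small. Of the immediate early and cAMP response genes 5 of 19 had an exonic region (Fosb, Jun, Junb, Ier2 and Klf4), or 26.3%. So did 4 of 15 endothelial genes (Flt1, Sox17, Vwf and Plvap), or 26.7%, and 4 of 25 chromatin regulators (Kmt2a, Chd8, Setd1b and Trrap), or 16%. Lists of 15 cholesterol synthesis genes and of 23 genes of the extracellular matrix and capsule held 0.

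The immediate early genes encode factors that cells induce within minutes of a stimulus, and their regions lay in coding sequence, 3′ untranslated sequence and, at Fosb, also a non-coding exon. Jun had 2.33 and 3.6 in its 3′ untranslated part and 1.32 and 1.57 in coding sequence. Fosb had 1.92 and 4.27 in its 3′ untranslated part and 0.887 and 2.09 in a non-coding exon. Ier2 had 1.66 and 3.06 in its 3′ untranslated part. Junb and Klf4 had coding regions of 1.07 and 2.23 and of 1.05 and 2.01. The regions of Jun, Junb, Ier2 and Klf4 lay only 1063 to 1463 bp from the nearest TSS, near the 1 kb limit. The 3′ untranslated region of Fosb lay 3201 bp away, so a 2.5 kb limit would leave Fosb alone of these genes.

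The exonic regions described here in Npc2 and in the listed cortex regulators and chromaffin genes had at most 1.13 in replicate 1 and 2.27 in replicate 2. Npc2, which moves cholesterol out of lysosomes, had one of 0.887 and 2.27 in its 3′ untranslated exon. Of the regulators of the cortex 3 of 26 had one, or 11.5%: Cited2, a co-activator needed for adrenal development, with 1.13 and 1.94 in coding sequence, Prkar1a, a regulatory subunit of protein kinase A, with 0.913 and 1.39, and Dlk1. Of the chromaffin genes 3 of 20 had one, or 15%. Over all protein-coding genes the share was 5.08%, and the counts of both lists are small. Phox2a had 1.01 and 0.739, Insm1 had 0.657 and 0.756, and Cacna1d had 0.733 and 1.28. Aqp2, a water channel of the kidney collecting duct, had a coding region of 0.853 and 1.05 and no shared promoter region.

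Of the chromatin regulators, Setd1b, a histone H3K4 methyltransferase, had 2.67 and 7.71 in a non-coding exon with the CTCF site shown above, and 1.31 and 1.71 in coding sequence. Kmt2a, another H3K4 methyltransferase, had 1.35 and 4.27 in exon 11, which is 147 bp long. Among endothelial genes, Vwf, which encodes von Willebrand factor, had 1.18 and 4.62 in an exon of a non-coding transcript, and Plvap, a protein of fenestrated endothelium, had 1.07 and 2.44 in coding sequence.

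Repeated sequence was rare among exonic regions. In 10, or 0.691%, at least 50% of the 32-base stretches occurred elsewhere in the genome, beside 1.18% of intronic, 2.3% of intergenic and 0.792% of promoter regions. Of these, 7 lay in non-coding exons, 2 in coding sequence and 1, Lars2, in a 3′ untranslated exon. Next to Lars2 the strongest were in Pisd-ps1, a pseudogene, with 6.99 and 4.66 and with 4.65 and 4.18, and nearby in Sfi1, with 3.16 and 2.74. Gm26848 had 1.36 and 3.43, and Muc19 had 1.29 and 1.31. The median ratio of replicate 2 to replicate 1 was 1.19 in the 10, against 2.07 in the other 1438, and 3 of the 10 were higher in replicate 1. Those 3 were the regions of Pisd-ps1 and Sfi1 just named. All of them lay within chr11:3127121-3132300, so they come from a single place in the genome. Reads from repeated sequence cannot be placed with certainty, and the sources used here do not say how the authors placed them.

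The regions nearest to the 1 kb limit were as follows. Just inside the 1 kb limit lay a non-coding exon of Smim14, 1001 bp from a TSS, with 0.503 and 0.959, and a coding exon of Ankrd24 at 1002 bp, with 0.614 and 0.325. Just outside, at 1000 bp, lay 3′ untranslated regions near TSSs of Hyou1, with 0.878 and 3.48, and Actn4, with 0.785 and 1.51.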

How the data were processed

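The deposited files were peak lists, footprints and false discovery rates of each library, on mm10 per the labels. Each library had 2 peak lists. Every peak of the longer list overlapped a position with an adjusted p-value below 0.05 in the authors' deposited rates, and every peak of the stricter list one below 0.001. The deposited signal, column 7 of the peak lists, is the authors' own value. For its scaling, the tools and the depth, the sources used here give nothing. The deposited footprints carry 0.01 throughout, read as a p-value threshold.

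Peaks were overlapped by at least 1 bp and set against GRCm38.p6 and GENCODE M21 with Python 3.11.15, NumPy 2.4.6, pandas 2.3.3 and SciPy 1.17.1. Printed sequences are from RefSeq's copy of GRCm38.p6. Stretches of 32 bases were counted over the genome (numba 0.67.0, tested on simulated data), and near copies were found with BLAST+ 2.17.0 (90% identity over 50% of a peak). Intervals are exact Clopper-Pearson at 95% and cover counting error only. No test between groups was made.

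Named genes were the 8 strongest regions of each class without repeated sequence, the 6 genes with the most regions (8 with ties), up to 12 regions in listed genes, the 6 strongest with repeated sequence, 2 on either side of the 1 kb limit, and up to 6 with a motif in footprints of both libraries; others named were picked after their values were seen. Members and lists were chosen with earlier results of these data known. Stricter lists, 50% reciprocal overlap, single libraries, a 2.5 kb limit, basic transcripts, 50% of bases in exons, regions without repeats, 24-base stretches and footprints at least 50% inside the peak were tried as alternatives; near copies and the CTCF alternatives were added after seeing the data. The count for the list of steroid synthesis and cholesterol supply genes is not reported here.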

Additional observations from a re-analysis of the deposited data

How the results depend on the processing

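Of 83 alternative values for 12 results, 53 stayed within the spread used for each (1.5 times for a count, the exact interval for a share, the SD between the libraries for signal and footprints) and 30 did not. The number of exonic regions was 717 with the stricter lists and 898 beyond 2.5 kb of a TSS. With peaks of a single library and no overlap asked for, it ranged from 1874 to 4589. The exonic share of distal regions was 8.09% with 50% reciprocal overlap and 6.49% beyond 2.5 kb. The coding share was 36.8% with the stricter lists, 36.7% with 50% reciprocal overlap, 38.4% beyond 2.5 kb and 49.7% with basic transcripts, and 43.5% to 46.2% in single libraries. The 3′ untranslated share was 32.5% with the stricter lists and with 50% reciprocal overlap, and 37.3% beyond 2.5 kb. The non-coding share was 23.3% beyond 2.5 kb and 16.9% with basic transcripts, and 24.1% in either single library.

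The median signal in replicate 2 was 3.19 with the stricter lists and 0.818 over all its own peaks. Footprint shares were 93.6% and 94.3% with the stricter lists, 90.8% and 94.2% with 50% reciprocal overlap, and 77.4% and 65.8% over each library's own peaks. The share with repeated sequence was 1.33% to 1.61% in single libraries and 3.25% by near copies, an alternative added after seeing the data. Also added then, the CTCF consensus was found in 18.4% of regions in both stricter lists, and in 97.7% of those it was in footprints of both libraries. No paired analysis was possible because there is only 1 group. The sources used here do not give the read depth, so the counting error of single peaks and footprints could not be computed, and a region missed in replicate 1 may lie below what that library could show.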

Other observations

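Gene families, picked by their symbols after the values were seen, held exonic regions in unequal shares, beside 5.08% of all protein-coding genes. Of the Sox genes, which encode HMG-box factors of development, 6 of 18 had one: Sox4, Sox6, Sox8, Sox11, Sox12 and Sox17. Of the Klf genes, zinc finger factors that bind GC-rich sequence, 4 of 16 had one (Klf1, Klf2, Klf4 and Klf10), and of the forkhead genes 4 of 41 (Foxc1, Foxl2, Foxn2 and Foxo3). The 39 Hox genes, which set position along the body axis, had 0. The Zfp genes, zinc finger genes of many kinds, had 13 of 388, or 3.35%, and the Slc genes of solute carriers 23 of 372, or 6.18%. The collagen genes had 4 of 43: Col4a3, Col12a1, Col16a1 and Col23a1. These counts were not tested.

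The CpG-rich coding regions differed from the other coding regions in more than distance to a TSS. Their median width was 222 bp in replicate 1 and 200 bp in replicate 2, against 166 bp and 180 bp. Their median signal was 0.938 in replicate 1 and 1.47 in replicate 2, against 0.827 and 1.70, so the order of the groups was opposite in the libraries. Both libraries had a footprint in 70.7% of them and in 78.8% of the others. Footprints covered 8.16% of their bases in replicate 1 and 10.4% in replicate 2, against 10.7% and 13.9%.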
